A study of Mus musculus with 8 samples.

Results

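Serum amyloid A proteins and other acute phase proteins are secreted when tissue is injured or infected, classically by the liver and also by the intestinal lining. Interleukin-1 and tumour necrosis factor act on them through NF-kB and C/EBP factors, and interleukin-6 and interleukin-22 act through STAT3. In mice, Saa1 and Saa2 encode closely related lipoprotein-bound proteins that also carry retinol. Saa3 is the member made mainly outside the liver, and Saa4 is the constitutive member. Lcn2 (lipocalin 2) sequesters bacterial siderophores, Hp (haptoglobin) binds free haemoglobin, Orm1 is an acid glycoprotein of plasma, and Dmbt1 is a mucosal scavenger receptor protein that binds bacteria.

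The results below describe these 8 genes in mouse small intestinal epithelium after deletion of Ascl2, a transcription factor of the crypt base stem cells, and in sorted crypt cells. Every probe whose gene name in the array files was one of the 8 symbols or an older alias was taken, which gave 10 probes of 41174 and 8 gene names of 27573. The genes were chosen by their measured log2 ratios after the deletion, and for Dmbt1 also in the sorted cells, so those ratios are given as a description with no test.

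RNA was hybridised to 8 2-colour Agilent whole mouse genome arrays. Deleted epithelium came from Ah-Cre/Ascl2floxed/floxed mice and control epithelium from Ah-Cre/Ascl2floxed/wt mice, at 3 and at 5 days after induction. Ah-Cre is a Cre recombinase under an inducible cytochrome P450 promoter, and the control mice carry this transgene and 1 floxed copy too. The numbers of mice behind the deletion RNAs are not given in the sources used here. Sorted cells came from Lgr5-EGFP-ires-CreERT2 mice, in which GFP marks Lgr5-expressing cells, and GFPhi cells were set against GFPlo cells in 2 sorts of 3 pooled mice each. Each RNA pair (deleted with control, or GFPhi with GFPlo) was on 2 arrays with the dyes exchanged.

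Each day of the deletion is therefore 1 RNA pair, and the 2 arrays of a day repeat the same RNA. A difference between the days cannot be told apart from a difference between the RNA pairs or their slides. Ascl2 itself was lower in the deleted epithelium, with log2 ratios of -1.33 on day 3 and -1.32 on day 5, and Lgr5 was higher in GFPhi cells, at 2.10 and 1.61. Whether the Ascl2 probe lies in the floxed stretch is not known here. All 6 epithelial markers (the list includes keratins and Epcam) were above background in both comparisons. The share of spots well above background ran from 55.0% to 66.9% per channel of the deletion arrays and from 35.5% to 44.6% per channel of the sort arrays. In bulk RNA, fewer cells of a type and less RNA per cell cannot be told apart.

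The Saa genes lie together on mouse chromosome 7, where the 6 Saa probes span 41564 bases in the mm8 build that the array files use. In that build the Saa3 probe is at chr7:46580703-46580762 on the minus strand. The brightest Saa1 probe is at chr7:46608742-46608801 on the minus strand. The dimmer Saa1 probe is at chr7:46608839-46609311 on the minus strand, a stretch of the genome longer than the brightest probe's. The Saa2 probe is at chr7:46622207-46622266 on the plus strand. The files do not give the exon or UTR of a probe, and probe sequences were not used here.

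The RefSeq promoter table (GRCm38.p6, a later build than the probes' mm8) held 5 of the 8 genes. The 250 bases before the start of Saa1, Saa2 and Saa3 are shown because the Saa2 probe and the dimmer Saa1 probe had one pattern over the deletion arrays and Saa3 another. Saa1 (chr7:46742981-46743230, minus strand) and Saa2 (chr7:46751583-46751832, plus strand) are transcribed away from each other, from starts 8853 bases apart. Saa3 is at chr7:46715677-46715926 on the minus strand. Capitals mark matches, on either strand, to an NF-kB motif (GGG and CC with any 5 bases between), a C/EBP motif (TTNNGNAAT) or a STAT motif (TTCNNNGAA), and no matches overlap.
Saa1: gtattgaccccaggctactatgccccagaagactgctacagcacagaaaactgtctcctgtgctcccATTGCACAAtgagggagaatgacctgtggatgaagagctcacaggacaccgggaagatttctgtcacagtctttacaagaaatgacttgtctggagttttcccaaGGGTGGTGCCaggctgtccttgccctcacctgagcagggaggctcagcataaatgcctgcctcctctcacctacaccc
Saa2: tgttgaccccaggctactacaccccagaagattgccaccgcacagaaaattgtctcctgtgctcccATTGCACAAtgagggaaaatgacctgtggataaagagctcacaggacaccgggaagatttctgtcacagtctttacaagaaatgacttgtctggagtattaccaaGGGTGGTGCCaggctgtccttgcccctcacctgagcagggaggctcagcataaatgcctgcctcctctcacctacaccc
Saa3: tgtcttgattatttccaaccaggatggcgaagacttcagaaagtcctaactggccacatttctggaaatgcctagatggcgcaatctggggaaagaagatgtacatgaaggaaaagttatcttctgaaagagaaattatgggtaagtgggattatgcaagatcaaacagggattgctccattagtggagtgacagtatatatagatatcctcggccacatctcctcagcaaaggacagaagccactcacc

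The Saa1 and Saa2 windows were 94.8% identical over 251 aligned columns, with 11 mismatches and 2 gap columns, whereas Saa1 and Saa3 were 48.2% identical. The C/EBP match began 183 bases before the Saa1 start and 184 before the Saa2 start, and the NF-kB match 78 and 79 bases before. The letters of none of the 3 motifs were found in the Saa3 window. The windows of Saa4 and Lcn2, not shown, held 1 NF-kB match each and 0 C/EBP or STAT matches. The 2 Saa1 probes are named for 1 gene and differed in pattern over the days. A link between motif letters and these patterns was not tested. Of 32536 distinct mouse promoter windows of the same length, 46% held the NF-kB motif, 10.2% the C/EBP motif and 7.04% the STAT motif. A match describes letters and is not a measured binding site.

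**Figure D1:**
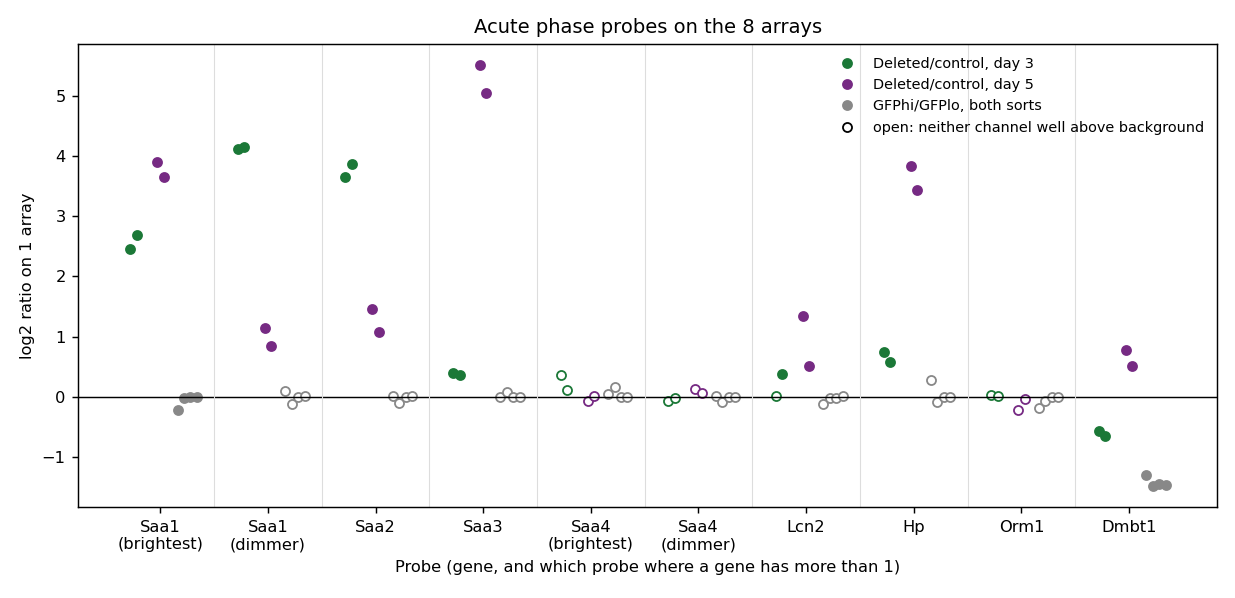
Log2 ratio of each of the 10 probes on each of the 8 arrays, as deleted over control on day 3 (green) and day 5 (purple) and as GFPhi over GFPlo (grey). Each point is 1 array, and open points mark arrays on which neither channel was well above background. Saa1 and Saa2 are high on both days, Saa3 and Hp mostly on day 5, and the sorted cells lie near 0 except for Dmbt1.

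Values are log2 ratios of deleted over control RNA unless a normalised log2 signal of a single channel is named. Well above background is the scanner software's mark that a spot exceeds its local background, and a probe entered the ranking of a comparison if 1 or both of its RNAs carried that mark on every array. In the deletion 6 of the 10 probes, from 5 of the 8 genes (Saa1, Saa2, Saa3, Hp and Dmbt1), met this, among 15900 genes in all. A gene is ranked here by its brightest probe.

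Saa1 was higher in the deleted epithelium on all 4 arrays by both of its probes, and the 2 probes differed in which day was higher. The brightest probe gave 2.45 and 2.69 on day 3 and 3.90 and 3.66 on day 5. Its mean of 3.17 over both days, a 9.03-fold difference, was the highest of the 15900 genes. The normalised log2 signal averaged 10.50 in deleted and 7.93 in control epithelium on day 3, and 11.36 in deleted and 7.59 in control epithelium on day 5, so that deleted and control channels did not overlap.

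The dimmer Saa1 probe gave 4.12 and 4.15 on day 3, a 17.5-fold difference, and 1.15 and 0.85 on day 5. Set among the brightest probes of the genes, its day 3 mean of 4.13 would rank 4th and its day 5 mean of 0.996 would rank 231st. Its control signal on day 5 was well above background on 1 of 2 arrays. Control signal averaged 6.23 on day 3 and 7.12 on day 5, close to or below that of Orm1 (7.04 and 7.11), which was not well above background. The fold is therefore partly against background. By the scanner's own processed signals its ratio was 5.75 on day 3 and 2.54 on day 5, and by the series' deposited ratios it was 5.73 and 2.63. The day 5 ratio stayed below the day 3 ratio under both.

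Saa2 followed the dimmer Saa1 probe rather than the brightest. It gave 3.65 and 3.87 on day 3, with a mean of 3.76, a 13.6-fold difference that ranked 6th. On day 5 it gave 1.45 and 1.08, with a mean of 1.27 that ranked 149th. By the scanner's processed signals the mean was 4.41 on day 3 and 2.56 on day 5, and by the deposited ratios it was 4.38 and 2.65. Deleted Saa2 signal averaged 10.7 on day 3 and 8.40 on day 5, against 6.95 and 7.14 in control epithelium. The control channel was marked well above background, but its signal was close to that of undetected probes, so the fold is partly against background.

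The distance between 2 probes over the 4 deletion arrays (Euclidean, on log2 ratios) was 0.67 for Saa2 with the dimmer Saa1 probe. For the 2 Saa1 probes it was 4.51. Saa1 and Saa2 are near-identical genes, so a probe named for one may take up RNA of the other, and how the signal is shared between them was not tested. The levels of each of the 2 genes are uncertain for that reason.

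Saa3 was close to control on day 3 and far above it on day 5. It gave 0.41 and 0.37 on day 3, a 1.31-fold mean difference that ranked 2334th. On day 5 it gave 5.51 and 5.05, a 38.7-fold mean difference of 5.28 that ranked 3rd. Control signal on those arrays was 7.17 and 7.55 and was marked well above background. Undetected Orm1 had control signal of 7.17 and 7.05 there, so the day 5 Saa3 fold is partly against background. The files list a RefSeq accession of Saa1 beside that of Saa3 for the Saa3 probe, so its assignment carries the same doubt.

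Both RNAs contributed to the Saa3 difference between the days. Deleted Saa3 signal averaged 9.15 on day 3 and 12.6 on day 5, while control signal averaged 8.76 on day 3 and 7.36 on day 5. Deleted epithelium was thus 3.49 higher on day 5 than on day 3, and control epithelium was lower on day 5 by a difference of -1.40. The mean ratio was 4.89 higher on day 5 than on day 3, which ranked 6th of the 15900 genes. Over all genes this day difference had a median of -0.0012, with 5% of genes below -0.89 and 5% above 0.96.

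Saa4 was not well above background on any of the 8 arrays by either of its probes, so no fold is given. Arrays in which a gene is not well above background limit the measurement and do not show that its RNA is absent.

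Hp shared the later pattern of Saa3. Its probe, at chr8:112464401-112464460 on the minus strand (mm8), gave 0.75 and 0.57 on day 3, against 3.84 and 3.44 on day 5. Its later mean of 3.64, a 12.4-fold difference, ranked 14th, and the day 3 mean of 0.66 ranked 987th. By the scanner's processed signals the Hp mean was 1.03 on day 3 and 4.98 on day 5, and by the deposited ratios it was 1.01 and 5.04. Deleted Hp signal averaged 8.15 on day 3 and 10.5 on day 5, against 7.49 and 6.84 in control epithelium. The day 5 control signal was as low as that of undetected probes, so the day 5 fold is partly against background. The day difference of 2.98 ranked 32nd.

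Lcn2 was near the limit of measurement. On day 3 the deleted channel was well above background on 1 of 2 arrays and the control channel on 0 of 2. On day 5 the deleted channel was above it on 2 of 2 arrays and the control channel on 1 of 2, with ratios of 1.34 and 0.52. Those 2 arrays repeat 1 RNA pair, and their SD of 0.58 was large beside the mean of 0.93. Orm1 was not well above background on any array.

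Dmbt1 was well above background in every group and had opposite signs on the 2 days. Its probe, at chr7:130912497-130912556 on the plus strand (mm8), gave -0.56 and -0.65 on day 3 and 0.78 and 0.51 on day 5. Deleted Dmbt1 signal averaged 13.5 on day 3 and 15.8 on day 5, against 14.1 and 15.1 in control epithelium. The signal of both RNAs was thus higher on day 5. With median centring of the arrays in place of loess, the day 5 mean was 0.34, with the sign unchanged.

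**Figure D2:**
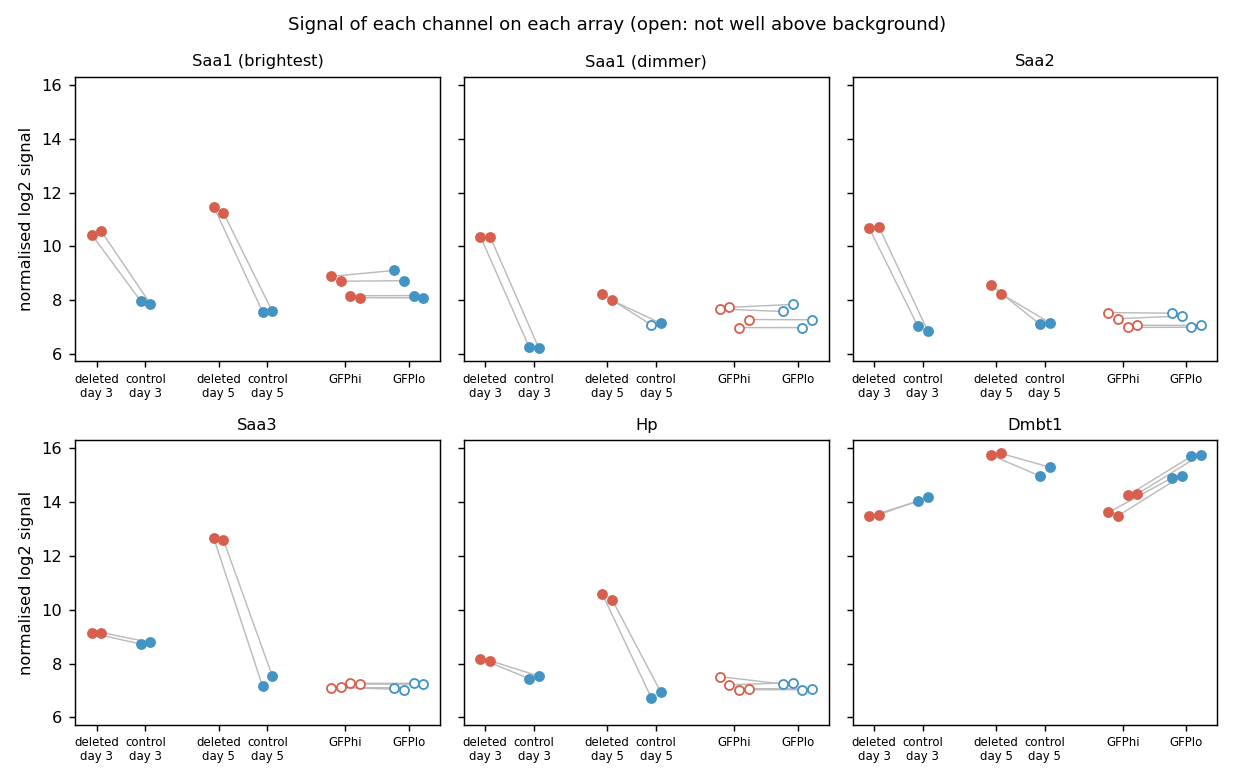
Normalised log2 signal of each channel on each array for the 6 probes above background in the deletion, with deleted left of control on each day and GFPhi left of GFPlo. Lines join the 2 channels of an array, and open points were not well above background. Saa3 and Hp separate deleted and control most on day 5, Saa2 and the dimmer Saa1 probe on day 3.

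Set against all genes, the members were read as follows. Over all 4 deletion arrays, 12 of 15900 genes (0.0755%) were at least 2-fold higher, and Saa1 and Saa2 were 2 of these 12. No member was among the 10 genes (0.0629%) that were at least 2-fold lower on all 4. On both day 3 arrays 1.72% of genes were at least 2-fold higher, including Saa1 and Saa2. On both day 5 arrays 1.14% of genes were, including Saa1, Saa2, Saa3 and Hp. These counts use the ratios that chose the members and carry no test. Under median centring 1 member gene reached 2-fold on all 4 arrays. A limma fit that takes the 2 days as replicates called 0 of 15900 genes (0%) at an adjusted p under 0.05 (Benjamini-Hochberg), and 1525 had an unadjusted p under 0.05.

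In the 200000 bases on either side of the Saa probes, 7 other genes had their brightest probe there and above background, with mean ratios between -0.49 and 0.42 on either day. A probe named for the interferon-induced gene Ifitm2, which is not that gene's brightest probe, also lies there and gave -1.23 on day 3 and 0.03 on day 5. Saal1, which shares a name stem with the family but is a different protein, gave -0.47 on day 3 and -0.04 on day 5.

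In the sorted cells, the brightest Saa1 probe was above background and showed no difference between GFPhi and GFPlo beyond the spread of the sorts. The brightest Saa1 probe gave -0.22 and -0.02 in the first sort and -0.004 and 0.008 in the other, with a mean of -0.06 (SE 0.07, limma adjusted p = 0.735, 2 sorts). Its normalised log2 signal averaged 8.47 in GFPhi cells and 8.52 in GFPlo cells, and the groups overlapped. The same fit called 65 of 10636 genes (0.611%). A limma fit that also takes in the spread between the deletion days called 0 genes in the sorts and 480 had an unadjusted p under 0.05. A p above the threshold does not show that the cells have equal Saa1 RNA. In the other sort the Saa1 ratios were as small as those of Orm1 (-0.006 and 0.007), which was not well above background. Some dim genes that were lower in the first sort also lay near 0 in the other, such as Lrg1 (-0.63 and -0.008) and Pyy (-2.41 and -0.04). The other sort could therefore show little of a Saa1 difference.

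The dimmer Saa1 probe, Saa2, Saa3, both Saa4 probes, Lcn2, Hp and Orm1 were not well above background in GFPhi or GFPlo cells on any of the 4 arrays. Dmbt1 was lower in GFPhi cells, at -1.29 and -1.48 in the first sort and -1.45 and -1.46 in the other. Its signal averaged 13.9 in GFPhi cells and 15.3 in GFPlo cells, a 2.67-fold difference. Markers of several other cell types were lower in GFPhi cells too. All 7 goblet cell markers above background were lower on all 4 sort arrays, with medians of -1.82 and -1.32 in the 2 sorts, and 5 of them passed the limma fit over the sorts. All 7 enteroendocrine markers above background were lower, with medians of -1.79 and -1.83, and 4 passed, while the 4 tuft cell markers above background were lower on all 4 arrays but did not pass. Paneth cell markers, also secretory, followed less: 2 of 5 were lower on all 4 sort arrays, with medians of -0.45 and -0.08. Of 10 enterocyte markers, which are not secretory, 7 were lower on all 4, with medians of -0.44 and -0.17. None of the Paneth cell or enterocyte markers passed. The part of these cell types in the Dmbt1 and defence gene ratios of the sorts was not tested. The 2 sorts pool 3 mice each, and p-values over them measure only the spread between these pools.

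The genes nearest to each probe over the 4 deletion arrays differed between members. Among 13088 named genes, the nearest to the dimmer Saa1 probe and to Saa2 were the same 3. These were Plb1, a brush border phospholipase (3.98 on day 3 and 0.93 on day 5), Tmigd1, a membrane protein of the enterocyte brush border (4.14 and 1.5), and Cbr3, a carbonyl reductase (3.5 and 0.87). The nearest to the brightest Saa1 probe were Clu, which encodes the secreted chaperone clusterin (2.42 on day 3 and 2.47 on day 5), Spp1, which encodes osteopontin (2.40 and 2.33), and S100a9, a calprotectin subunit of neutrophils and inflamed epithelium (1.02 and 3.95).

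Saa3 lay nearest to C3, the central complement component (-0.001 on day 3 and 4.26 on day 5), Dcn, the matrix proteoglycan decorin (-0.31 and 4.41), and Col1a2, a chain of type I collagen (-0.74 and 4.68). Hp lay nearest to Anxa1, the phospholipid-binding annexin A1 (0.72 and 3.57), Timp1, an inhibitor of matrix metalloproteinases (0.60 and 3.27), and again S100a9. Dmbt1 lay nearest to Grhl1, a grainyhead-like transcription factor (-0.64 and 0.66), Shisal2b and Sval1, with distances of 0.12 to 0.18. Distances were 1.92 to 2.23 for the brightest Saa1 probe and 1.59 to 1.82 for Saa3, so the genes nearest to these were less alike. They were 0.29 to 0.93 for the dimmer Saa1 probe, 0.57 to 0.69 for Saa2 and 0.27 to 0.70 for Hp. All these distances rest on 4 arrays of 2 RNA pairs.

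**Figure D3:**
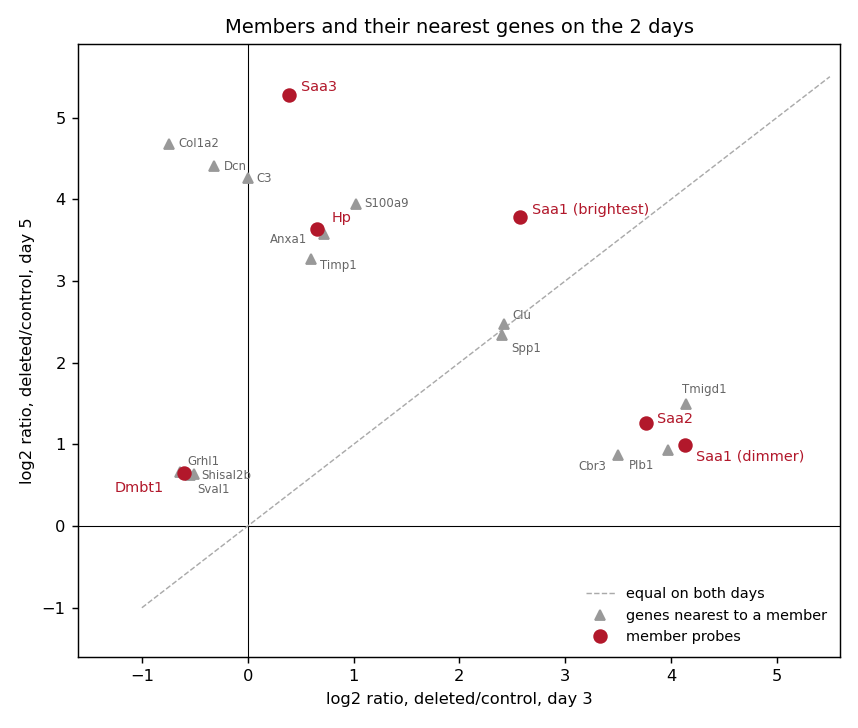
Mean log2 ratio of deleted over control on day 3 (x axis) against day 5 (y axis) for the 6 member probes (red circles) and the genes nearest to them (grey triangles). The dashed line marks equal ratios on both days. Saa2 and the dimmer Saa1 probe sit at the right with Plb1, Tmigd1 and Cbr3, and Saa3 and Hp sit at the top left.

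Markers of some other cell types, most of all fibroblasts, were also higher on day 5. Of 7 fibroblast markers, 5 were above background, and their median ratio was -0.74 on day 3 and 4.68 on day 5. Their summed linear signal lay between 15719 and 17012 in deleted and between 686 and 743 in control epithelium on day 5, and between 1244 and 1262 in deleted and between 1958 and 2077 in control epithelium on day 3. Col3a1, which encodes type III collagen, gave -1.07 on day 3 and 5.11 on day 5. The day 5 control sum was about what 5 undetected probes would give, so the day 5 ratios of these markers are partly against background. Dpt was not above background on any deletion array. The part of fibroblast RNA in the day 5 ratios of Saa3, Hp and the brightest Saa1 probe was not tested.

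Of 10 neutrophil markers on the array, 4 were above background, with a median of 0.68 on day 3 and 1.43 on day 5. Their summed signal lay between 2344 and 2668 in deleted and between 636 and 643 in control epithelium on day 5, and between 1106 and 1173 in deleted and between 687 and 712 in control epithelium on day 3. Camp, Elane, Ngp, Csf3r and Retnlg, which are specific to neutrophils and their precursors, were not well above background on any deletion array. Ltf, which encodes lactoferrin, gave 1.07 on day 3 and 0.88 on day 5. The 11 macrophage and monocyte markers above background had a day 3 median of -0.16 and a day 5 median of 0.33. Their summed signal lay between 33295 and 40723 in deleted and between 25436 and 28021 in control epithelium on day 5. On day 3 it lay between 15373 and 16252 in deleted and between 28251 and 31179 in control epithelium. These sums mostly follow Lyz2, at a mean log2 signal of 14.4 in deleted and 14.6 in control epithelium, with Cd14 next at 9.65 and 9.27. Lyz2 gave -1.01 on day 3 and 0.46 on day 5, and the Paneth cell marker Lyz1 gave -1.20 and 0.39. The part of neutrophil and macrophage RNA in the members' ratios was not tested.

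Of 9 markers of hepatocytes, the classical source of these proteins, 5 were above background and had a median of -0.20 on the first day and -0.14 on the later one. Their summed signal on day 5 lay between 1092 and 1097 in deleted and between 1112 and 1140 in control epithelium, and Ahsg and Fga were not above background on any deletion array. Tat, a liver aminotransferase, gave -0.07 on day 3 and 0.78 on day 5, and Cyp2e1, a cytochrome P450, gave -0.20 and -0.92. The part of hepatocyte RNA in the members' ratios was not tested.

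On day 3, summed signal was higher in deleted epithelium for the 10 enterocyte markers, between 763380 and 874120 against 388510 to 696790 in control epithelium. It was likewise higher on day 3 for the 7 T cell markers, between 7331 and 7755 in deleted against 4166 to 4632 in control epithelium. For the 7 goblet cell markers it lay between 490190 and 579110 in deleted against 150280 to 270930 in control epithelium, with a median ratio of 0.94. The 5 B and plasma cell markers lay between 2020 and 2042 in deleted against 1102 to 1111 in control epithelium. The 4 tuft cell markers lay between 2245 and 2282 in deleted against 1313 to 1425 in control epithelium. Summed signal was lower in deleted epithelium on day 3 for the 5 Paneth cell markers, between 59374 and 102530 against 208580 to 261980 in control epithelium, and for the 10 crypt base stem cell markers, between 4545 and 4669 against 10958 to 11058 in control epithelium. On day 5 the enterocyte sum lay between 479640 and 596130 in deleted against 605120 to 643430 in control epithelium. Day 5 medians were -0.42 for enterocyte, -0.41 for tuft cell, -0.06 for T cell, 0.01 for goblet cell and 0.13 for B and plasma cell markers. They were 0.39 for Paneth cell and -0.44 for crypt base stem cell markers. The part of these cell types in the day 3 ratios of the members was not tested.

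Of 13 cytokines of the acute phase response on the array, 7 were above background in the deletion, 3 of them higher and 1 lower on all 4 arrays. Over all genes, 12.6% were higher and 13.4% lower on all 4 arrays. Il1b, an inducer of Saa genes, gave 0.24 on day 3 and 1.13 on day 5 (adjusted p = 0.518, limma over both days). Tnf gave -0.01 and -0.02. Il6 was above background in deleted epithelium on 2 of 4 arrays and in control on 0 of 4, and Il22 was not above background on any. Of 11 cytokine receptors above background 2 were higher and 2 lower on all 4 arrays, with Il17rc, a receptor chain for interleukin-17, at 0.51 and 0.34 and Il1rap, a receptor chain for interleukin-1, at -0.57 and -0.10.

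Of 20 signalling and transcription factor genes of the response, 8 were higher on all 4 arrays and 0 were lower, with list medians of 0.20 on day 3 and 0.17 on day 5. None of the 20 passed the fit over both days. Nfkbiz, an NF-kB cofactor at acute phase promoters, gave 0.78 on day 3 and 1.24 on day 5. Nfkbia, the NF-kB inhibitor and target, gave 0.78 and 0.19. Stat3, the mediator of interleukin-6 and interleukin-22, gave 0.36 and 0.47, and Jak2, a kinase upstream of it, gave 0.46 and 0.17. Cebpb was nearly level at 0.22 and 0.06.

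Socs3, the STAT3-induced inhibitor, and Cebpd, the acute phase C/EBP factor, were level on day 3 and high on day 5. Socs3 gave 0.01 on day 3 and 2.09 on day 5, and Cebpd gave -0.01 and 1.43. Under median centring in place of loess, all lists together had 10 genes higher on all 4 arrays, in place of 26 of 82 (31.7%), and 1 lower, in place of 7 (8.54%).

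Of 12 other acute phase protein genes above background, 4 were higher on all 4 arrays and 0 were lower. Lrg1, a leucine-rich plasma glycoprotein, gave 0.41 on day 3 and 2.12 on day 5. Lbp, which binds bacterial lipopolysaccharide, gave 1.02 and 0.46. C4b and Cfb, complement components, gave 0.18 and 0.48, and 0.33 and 0.13. Crp, Fgg, Orm3 and Hamp, among the liver's acute phase products, were not above background on any deletion array. Of 5 negative acute phase genes, whose plasma proteins fall in the response, 1 was higher on all 4 arrays (Trf, transferrin, 0.11 and 0.78) and 2 were lower (Apoa2, -0.52 and -0.14, and Ttr, transthyretin, -0.25 and -0.29).

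Of 7 receptors and partners of the member proteins above background, 1 was higher on all 4 arrays and 0 were lower. It was Fpr1, a formyl peptide receptor, at 0.32 on day 3 and 0.71 on day 5.

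Among epithelial defence genes, 7 of 20 were higher and 2 lower on all 4 arrays, and none passed the fit over both days. Reg3g and Reg3b, bactericidal lectins induced by interleukin-22, gave 1.64 on day 3 and 1.22 on day 5, and 1.97 and 0.48. S100a9 and Cxcl5, a neutrophil-attracting chemokine, were higher mostly on day 5, with Cxcl5 at 0.22 and 2.87. Control signal was well above background on 2 of 4 deletion arrays for Cxcl5 and on 3 of 4 for S100a9, so their ratios are partly against background.

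In the sorts 16.9% of genes were higher and 16.8% lower in GFPhi cells on all 4 arrays. The defence list had 9 of 13 lower and 1 higher. Reg1, a secreted lectin, fell by 0.81 on the log2 scale in GFPhi cells (limma adjusted p = 0.0391) and was the only one of these lists' genes to pass. That call is lost in the fit that takes in the spread between the deletion days. Of 19 signalling genes 1 was higher and 4 were lower on all 4 sort arrays, with Cebpb at -0.43 (adjusted p = 0.0919). The cytokine list had 1 higher and 1 lower of 2, and the receptor list 0 higher and 1 lower of 5. The other acute phase list had 1 higher, Cfb at 0.39, and 3 lower of 7. Of 3 negative acute phase genes 1 was higher and 2 were lower, and of 4 receptors and partners of the members 1 was higher and 1 lower.

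**Figure D4:**
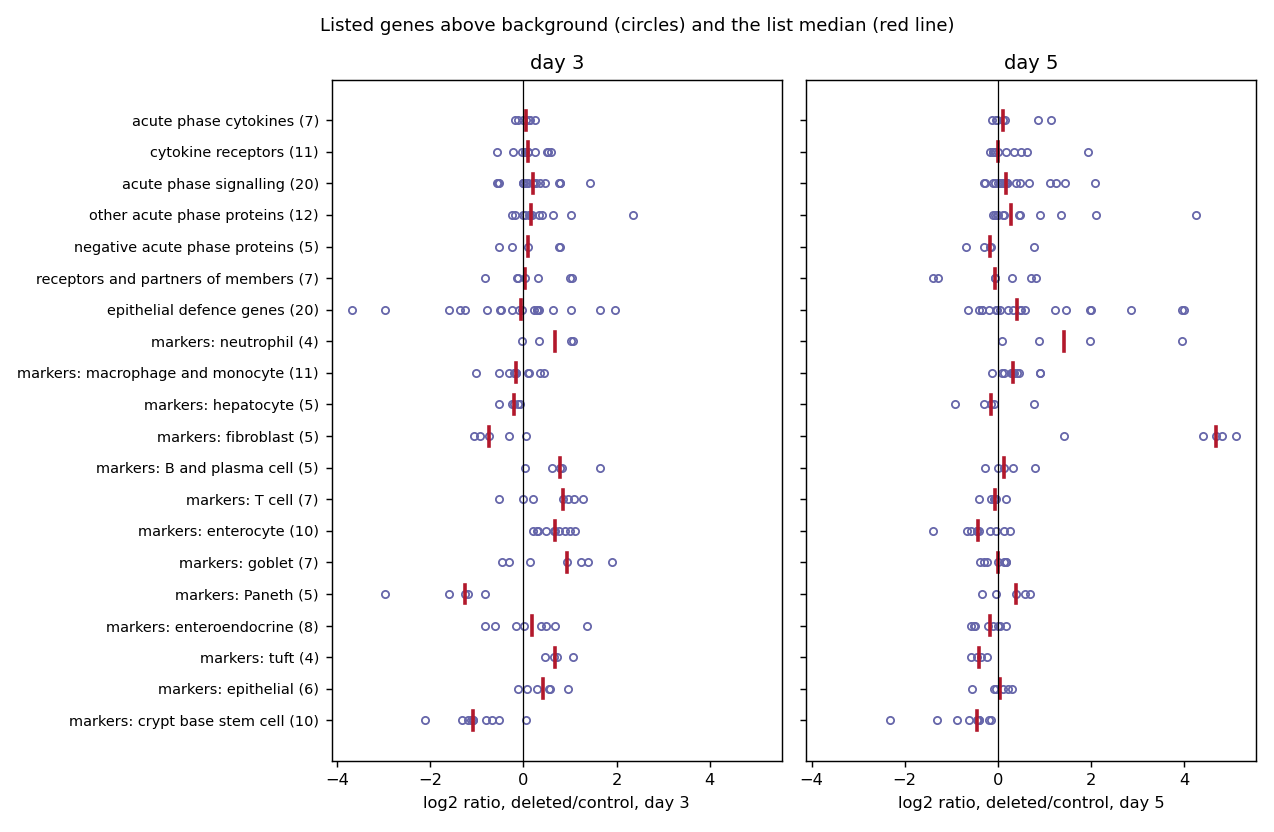
Mean log2 ratio of deleted over control on day 3 (left) and day 5 (right) for each listed gene above background (circles), with the list median as a red line and the number of genes in parentheses. Fibroblast markers have a day 3 median of -0.74 and a day 5 median of 4.68, and hepatocyte markers have medians of -0.20 and -0.14.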

How the data were processed

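The members and gene lists were chosen with earlier results of these data known. Per the file headers, the deposited scanner files were made with Agilent Feature Extraction 9.5.3.1 (protocol GE2-v5_95_Feb07, build mm8), and their spot intensities are not normalised between channels. The deposited log10 ratios of the scanner's processed signals are background-subtracted and dye-normalised per the file headers. The deposited log2 ratios of the series matrix correlate with each array's scanner ratios at 0.972 or more, with normalisation and centring unstated.

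Mean intensities were corrected with normexp (offset 50) and loess-normalised in limma 3.58.1 (R 4.3.3), leaving out control spots and outlier marks. Ratios were turned to deleted over control or GFPhi over GFPlo by the labelled dyes, joined by feature number, and averaged over spots of a probe and then over both dye orientations of each RNA pair. The offset shrinks ratios of dim probes. Single-channel levels followed between-array quantile scaling of average intensity. The sorts were tested with lmFit and eBayes on the 2 sorts, two-sided, with Benjamini-Hochberg adjustment over 10636 genes. On simulated sorts of 10636 genes this fit recovered 50% of genes changed by 0.5 and 100% of those changed by 1 on the log2 scale. It also called 18 of 10436 unchanged genes. The simulation gave both sorts the same change and left out the shrinkage of dim probes, so it does not give the recovery in these sorts. In the data Muc2 at -1.47 (limma adjusted p = 0.0613) and Fabp1 at -1.15 (limma adjusted p = 0.145) did not pass. Only 2 RNA pairs per comparison limit the precision. Named genes are every member probe, up to 4 genes per list with the largest mean absolute ratio and 1 sign on all 4 deletion arrays and up to 2 in the sorts, 10 cytokine and signalling genes, and the 3 nearest genes per probe. Other genes named in a marker or list sentence were chosen after their values were seen. Symbols came through RefSeq accessions for 23374 of 41174 probes, through current symbols for 6733 and older ones for 2919, and were kept as in the files for 8148. Motifs and alignments used Biopython 1.88.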

Additional observations from a re-analysis of the deposited data

Results flagged for a closer look

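Several genes lay above control on one day of the deletion and below it on the other, on all arrays of each day. The difference between the days was not tested, since each day is 1 RNA pair. Dmbt1 was at -0.60 on day 3 and 0.64 on day 5. Bcl3, an NF-kB cofactor, was at -0.55 and 0.67, Tlr2, a receptor for bacterial lipoproteins, at -0.82 and 0.82, and Reg4, a secreted lectin, at -0.47 and 0.50. The opposite order was seen for Apoa1 at 0.75 on day 3 and -0.17 on day 5, Rbp4 at 0.79 and -0.68, and Apoa4 at 0.99 and -1.38. The genes named here are not a full list, and other listed genes turned sign in either order. Socs1 was at -0.52 and 1.12, for example, and Relb at 1.43 and -0.29.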

How the results depend on the processing

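No paired analysis was possible because the deletion and sort comparisons share no RNA pair and each pair is already a ratio of its 2 RNAs. Of the alternatives for single probes, 58 stayed within the spread, 29 moved and 2 turned sign. Those were the 2-day mean of Dmbt1, which ran from -0.60 without day 5 to 0.64 without day 3, and the Saa1 sort ratio, which ran from -0.12 to 0.0019 with 1 sort left out. The cause was not tested unless fewer RNA pairs account for it. The spread was the SD over the 2 arrays of a day, or over the 2 days or 2 sorts of a mean. Leaving 1 of 2 values out always stays within that SD, so such alternatives could only stay or turn sign. They do not measure stability. The 2-day mean of Saa3 counted as staying at 2.83, although it was 0.39 without day 5 and 5.28 without day 3.

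Genes at least 2-fold higher on all 4 deletion arrays numbered 49 with the scanner's processed signals, 29 with the deposited ratios, 4 with median centring and 64 at 1.5-fold, and 182 to 274 with 1 day left out. Lower genes numbered 35, 23 and 54 with processed signals, deposited ratios and 1.5-fold, and 114 to 272 with 1 day left out. Member genes numbered 1 with median centring and 2 to 4 with 1 day left out. Listed genes numbered 10 higher and 1 lower with median centring, and 44 to 46 higher and 22 to 23 lower with 1 day left out. Genes called in the sorts numbered 1287 with no background subtraction, 859 with processed signals, 808 with deposited ratios, 27 with a random block and 0 by limma with 1 coefficient per comparison, a fit in which 480 genes had an unadjusted p under 0.05. That fit gave 0 to 0 with 1 sort left out. Signal near background limits the Lcn2 values and, in the sorted cells, those of every member probe but Dmbt1 and the brightest Saa1 probe. The brightest Saa1 probe was dim there, and its ratios in sort 2 were as near 0 as those of undetected probes. In the deletion, control signal of Saa2, the dimmer Saa1 probe and, on day 5, Hp was about as low as that of undetected probes. Saa3 control signal on day 5 was near that level too. The folds of all these probes are therefore partly against background.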
